A study of Mus musculus with 8 samples.

Results

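The genes described here are the mouse genes whose symbol is Zfp followed only by a number, a naming family that covers much of the mouse zinc finger repertoire. They were taken by symbol, leaving out Zfp36 and Zfp365, and kept where at least 10 counts were present in at least 2 of the 8 libraries. Of 30419 gene names in the table, 330 had such a symbol and 279 met the count rule. Of the 51 names below it, 12 had no count in any library. The member nearest the limit was Zfp59, with 10 or more counts in exactly 2 libraries (12 in a WT control library and 10 in a mutant control library). Just outside lay Zfp296, with a highest count of 15 in a single library. The rule uses symbols and counts alone, but it was set with earlier results of these data known. A gene could meet the count rule through 1 treatment or 1 genotype alone. Both symbols left out rose with doxorubicin. On the log2 scale Zfp365 rose by 3.53 in mutant and 3.30 in WT cells, and Zfp36 by 0.76 and 0.59.

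RNA was sequenced from early-passage mouse embryonic fibroblasts (MEFs), the connective tissue cells grown from embryos at E13.5 (embryonic day). The 4 groups were mutant cells (Dino lox/lox) with doxorubicin, mutant cells with vehicle (control), WT cells (Dino +/+) with doxorubicin and WT cells with vehicle, with n = 2 libraries each, lettered A and B. Doxorubicin, which traps topoisomerase II on DNA and so causes DNA breaks, was given at 0.2 µg/mL for 8 h. Dino is a p53-induced long noncoding RNA gene beside Cdkn1a, and its RNA was not analysed here. The labels do not say whether a Cre recombinase had acted on the lox sites, how many embryos gave the cells, or whether A and B were separate cultures, so p-values may measure technical spread only.

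Most proteins of this family carry tandem C2H2 zinc fingers, short folds held by a zinc ion through a pair of cysteines and a pair of histidines, each of which reads a few bases of DNA. A large subgroup also carries a KRAB (Krüppel-associated box) domain, which recruits the corepressor Trim28 and through it heterochromatin proteins, histone H3 lysine 9 methylation and, in early embryos, DNA methylation. KRAB zinc finger genes multiplied in mammals as tandem clusters, and many bind families of endogenous retroviruses or imprinted loci. The family also holds proteins with other work, such as the spindle protein Zfp207, the ribosome-linked ubiquitin ligase Zfp598 and developmental regulators such as Zfp423 and Zfp521.

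Total counts per library ran from 25482805 to 33285171, and 3 counts corresponded to 0.088 to 0.12 CPM (a gene's counts scaled to library size, with TMM factors). Levels below are CPM, as mean ± SD over n = 2 libraries where a single value is given, and differences are log2 fold changes ± SE. A change was called at a Benjamini-Hochberg adjusted p under 0.05 in edgeR's quasi-likelihood test over the 12255 genes tested. The 10 listed fibroblast markers summed to 3842 to 4077 CPM in mutant doxorubicin libraries, 4193 to 4346 CPM in mutant controls, 4038 to 4308 CPM in WT doxorubicin libraries and 4290 to 4619 CPM in WT controls. The 8 listed macrophage markers summed to 33.48 to 38.21, 28.92 to 29.15, 32.80 to 34.51 and 21.60 to 23.30 CPM in the same order of groups, with 1 marker called higher with doxorubicin in mutant cells and 5 in WT cells. The 4 endothelial markers summed to 5.682 to 5.850, 1.338 to 1.728, 6.634 to 11.09 and 2.081 to 2.964 CPM in that order, and the globin genes Hba-a1 and Hbb-b1 were at 0 in every library. The part of other cell types in the results on Zfp genes was not tested, and in bulk RNA fewer cells of a type and less RNA per cell cannot be told apart.

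The Zfp genes were mostly expressed at low levels. Their mean CPM over all libraries ran from 0.208 to 627 with a median of 3.95, against a median of 5.94 for all genes tested. Below 1 CPM lay 60 members, between 1 and 10 CPM 135, and at 10 CPM or more 84, and no member was at 0 counts in any library. Per kb of annotated exon, the highest level belonged to Zfp422 at 173 CPM per kb, followed by Zfp367 at 80.6, Zfp281 at 61.3, Zfp664 at 45.0 and Zfp207 at 41.9 CPM per kb, against a median of 0.891 CPM per kb over the members. These per-length values assume reads along the whole transcript. The labels name both an exome-capture kit and sequencing of 3' ends, and this was not resolved here.

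Counts assigned to the members made up 0.653% and 0.625% of all counts in mutant doxorubicin libraries A and B, against 0.728% and 0.723% in mutant controls. In WT cells the shares were 0.668% and 0.638% with doxorubicin, against 0.746% and 0.731% in controls. The share was thus lower in every doxorubicin library than in every control library. The summed CPM of the members averaged 6523 with doxorubicin and 7501 in control for mutant cells, and 6229 with doxorubicin and 7348 in control for WT cells. The 6 members of highest mean CPM, Zfp422, Zfp367, Zfp26, Zfp664, Zfp148 and Zfp462, summed to 2041 CPM with doxorubicin and 3001 CPM in control for mutant cells, and to 1801 CPM with doxorubicin and 2908 CPM in control for WT cells. All other members together summed to 4482 CPM with doxorubicin and 4501 CPM in control for mutant cells, and to 4427 CPM with doxorubicin and 4440 CPM in control for WT cells. The lower total with doxorubicin was therefore carried by these few abundant genes.

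Zfp422 had 490.5 and 479 CPM in mutant doxorubicin libraries, 776 and 803 CPM in mutant controls, 441 and 493 CPM in WT doxorubicin libraries and 787 and 748 CPM in WT controls. It fell by 0.70 ± 0.07 on the log2 scale in mutant cells (adjusted p = 1.56e-08) and by 0.72 ± 0.07 in WT cells (adjusted p = 1e-08). Every doxorubicin library lay below every control library in both genotypes. Zfp26, a KRAB member, averaged 320 ± 3.26 CPM with doxorubicin and 457 ± 8.85 CPM in control in mutant cells, and 303 ± 19.9 CPM with doxorubicin and 466 ± 0.658 CPM in control in WT cells, with log2 fold changes of -0.52 ± 0.07 and -0.62 ± 0.07. Zfp664 averaged 366 ± 21.9 CPM with doxorubicin and 384 ± 17.8 CPM in control in mutant cells, where the test was not passed (adjusted p = 0.444), and 306 ± 19.4 and 355 ± 12 CPM in WT cells, where it fell by 0.21 ± 0.07 (adjusted p = 0.0133). Without WT doxorubicin library A the adjusted p of that last change was 0.112.

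The first question was how the Zfp genes respond to DNA damage in each genotype. Of 278 members tested, 59 rose and 67 fell with doxorubicin in mutant cells, that is 21.2% and 24.1% of the members. Over all genes tested, 28.3% rose and 25.9% fell in the same comparison. In WT cells 65 members rose and 70 fell (23.4% and 25.2%), against 29.3% and 28.1% of all genes tested. The median log2 fold change of the members was -0.08 in mutant cells and -0.02 in WT cells, against 0.01 for all genes tested in each genotype. The members' shares were under those of all genes in both directions, more so for rises than for falls.

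Split by mean level, the counts were as follows. At 10 CPM or more, 22 of 84 members rose and 33 fell in mutant cells, against 1727 and 1904 of 5084 genes tested. At 1 to 10 CPM, 31 of 135 members rose and 28 fell, against 1196 and 1068 of 4704 genes tested. Below 1 CPM, 6 of 59 members rose and 6 fell, against 546 and 205 of 2467 genes tested. In WT cells the members' counts in the same order were 24 up and 32 down, 33 up and 31 down, and 8 up and 7 down, against 1736 and 2001, 1257 and 1205, and 596 and 242 over all genes tested. Below 1 CPM the rises of all genes tested clearly outnumbered their falls, and among the members they did not.

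The responses of the members in the 2 genotypes had the same sign wherever both were called. In 112 members the change was called in both genotypes, 53 upward and 59 downward, and no member was called in opposite directions. A further 6 rose and 8 fell with a call in mutant cells only, 12 rose and 11 fell with a call in WT cells only, and 129 were called in neither; a call in a single genotype does not show that the responses differ. Among the 112, the change was larger in mutant cells for 51 and larger in WT cells for 61, with a median size of 0.802 in mutant and 0.835 in WT cells on the log2 scale. In 105 of them the genotypes differed by less than 0.5. The overlap of calls between the genotypes was not counted over all genes tested, so it is not shown to be particular to the members. Of all genes tested, 28.3% rose and 25.9% fell in mutant cells, and 29.3% and 28.1% in WT cells. The difference between the responses was called for 0.0734% of all genes tested.

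**Figure D1:**
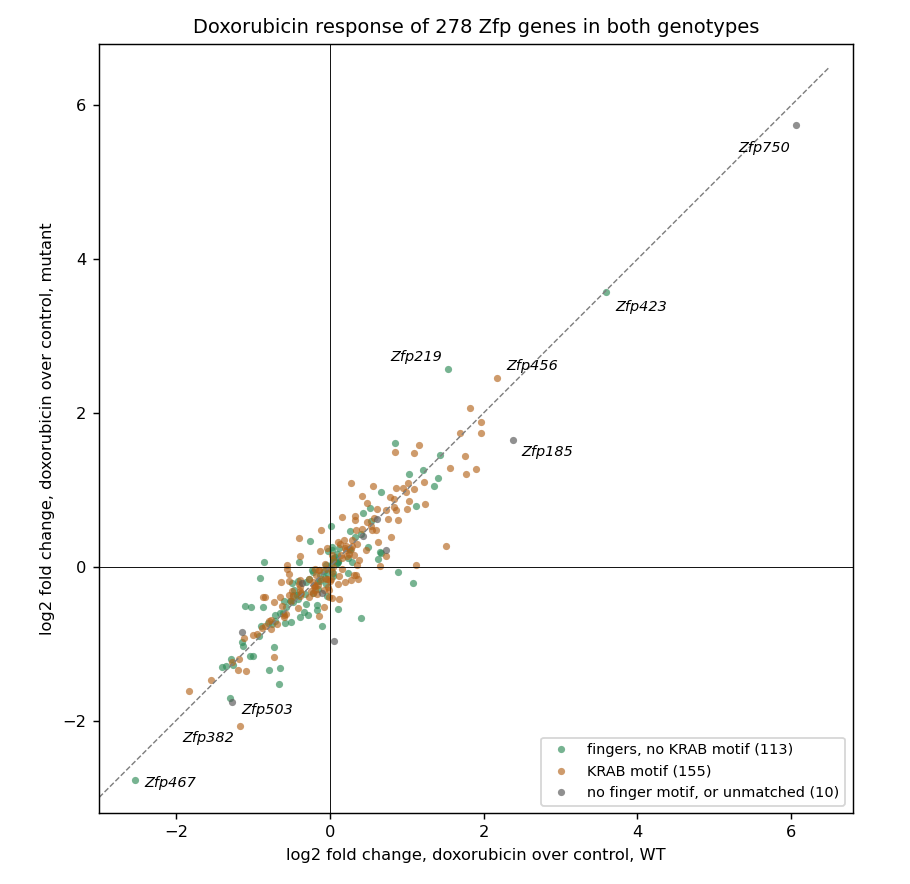
Each point is 1 of 278 Zfp genes, with its log2 fold change (doxorubicin over control) in WT cells on the x axis and in mutant cells on the y axis, coloured by protein class, with a dashed line where both are equal. The members spread along that line, from Zfp467 at -2.53 in WT and -2.77 in mutant cells to Zfp750 at 6.06 and 5.75. Zfp750 is of the class without a C2H2 motif. The KRAB class reaches 2.17 in WT and 2.46 in mutant cells, and members with fingers and no KRAB motif reach 3.59 and 3.58.

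The largest rise belonged to Zfp750, whose human counterpart ZNF750 drives terminal differentiation of the epidermis. Zfp750 had 2.80 and 3.16 CPM in mutant doxorubicin libraries, 0.0343 and 0.0678 CPM in mutant controls, 4.90 and 4.44 CPM in WT doxorubicin libraries and 0.0743 and 0.0587 CPM in WT controls. It was close to absent in all 4 control libraries and present in all 4 doxorubicin libraries. In counts this was 150 over the mutant doxorubicin libraries against 3 over the mutant controls, a ratio of 58.3 after scaling for depth (95% exact interval 19.6 to 286), and 290 over the WT doxorubicin libraries against 4 over the WT controls, a ratio of 71.1 (27.5 to 263). These intervals cover counting error only, and reads without molecular identifiers are not independent molecules. With 3 and 4 counts in the controls, Zfp750 met the count rule only through its doxorubicin libraries. A high level there was thus a condition of its membership. The test gave adjusted p = 1.58e-10 in mutant and 5.73e-12 in WT cells.

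Zfp423, which commits mesenchymal cells to the fat lineage and binds Ebf1 and Smad proteins, showed the second-largest rise. It had 1.48 and 1.46 CPM in mutant doxorubicin libraries, 0.103 and 0.136 CPM in mutant controls, 1.72 and 1.53 CPM in WT doxorubicin libraries and 0.149 and 0.117 CPM in WT controls. As counts, 74 stood against 7 in mutant cells, a ratio of 12.3 (95% exact interval 5.70 to 31.7), and 101 against 8 in WT cells, a ratio of 12.4 (6.05 to 29.5). Zfp423 too met the count rule only through its doxorubicin libraries. The intervals of the ratios overlapped, and the difference between the responses was not called. Over the 8 libraries the log2 CPM of Zfp423 was most like that of Zfp750 (Pearson r = 0.998), Zfp287 (0.996) and Zfp654 (0.995).

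The other members with large rises were mainly KRAB zinc finger genes. Zfp456 had 3.64 and 4.62 CPM in mutant doxorubicin libraries, 0.652 and 0.847 CPM in mutant controls, 5.23 and 4.94 CPM in WT doxorubicin libraries and 0.966 and 1.26 CPM in WT controls. Its log2 fold change was 2.46 ± 0.24 in mutant cells (adjusted p = 2.06e-08) and 2.17 ± 0.21 in WT cells (adjusted p = 1.75e-08). In both genotypes the doxorubicin libraries stood well clear of the controls. Zfp677 had 5.56 and 5.14 CPM in mutant doxorubicin libraries, 0.995 and 1.56 CPM in mutant controls, 7.15 and 5.04 CPM in WT doxorubicin libraries and 1.75 and 1.70 CPM in WT controls, with log2 fold changes of 2.06 ± 0.23 and 1.82 ± 0.21. Again no doxorubicin library came near a control library.

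Zfp287, which carries both a SCAN dimerisation motif and a KRAB motif, averaged 9.84 ± 0.450 CPM with doxorubicin and 2.66 ± 0.0254 CPM in control in mutant cells, and 10.9 ± 1.94 and 2.79 ± 0.000865 CPM in WT cells. Its log2 fold changes were 1.89 ± 0.16 in mutant and 1.97 ± 0.16 in WT cells. Zfp947 rose by 1.73 ± 0.20 in mutant and 1.97 ± 0.19 in WT cells, and Zfp429 by 1.74 ± 0.24 and 1.69 ± 0.26. Zfp248 rose by 1.44 ± 0.16 in mutant and 1.75 ± 0.15 in WT cells, and Zfp944 by 1.28 ± 0.12 and 1.57 ± 0.12. Of these genes, Zfp456, Zfp947, Zfp944 and Zfp429 shared between 10.4% and 25% of their 50-base windows with another gene, so that reads could be exchanged with near copies and their values are uncertain, while Zfp677 shared 0.0363%.

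Among members of higher abundance, Zfp654 and Zfp263 rose in every doxorubicin library. Zfp654 had 86.2 and 82.5 CPM in mutant doxorubicin libraries, 31.1 and 30.6 CPM in mutant controls, 80.1 and 85.3 CPM in WT doxorubicin libraries and 32.0 and 29.4 CPM in WT controls. The log2 fold change was 1.45 ± 0.08 in mutant cells (adjusted p = 2.07e-12) and 1.43 ± 0.08 in WT cells (adjusted p = 1.95e-12), the tightest of the large rises. Zfp263, a SCAN zinc finger protein that binds DNA near many promoters in human cells, had 210.4 and 183 CPM in mutant doxorubicin libraries, 87.7 and 89.1 CPM in mutant controls, 248 and 175 CPM in WT doxorubicin libraries and 84.5 and 74.3 CPM in WT controls. The WT doxorubicin libraries were apart from each other by more than any other pair of this gene, and both were above all controls.

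The largest fall among named members was that of Zfp467, a factor that favours fat over bone differentiation of marrow stroma in mice. It had 0.0800 and 0.316 CPM in mutant doxorubicin libraries, 1.13 and 1.63 CPM in mutant controls, 0.331 and 0.313 CPM in WT doxorubicin libraries and 2.04 and 1.73 CPM in WT controls. The log2 fold change was -2.77 ± 0.46 in mutant cells (adjusted p = 2.84e-05) and -2.53 ± 0.38 in WT cells (adjusted p = 7.12e-06). Mutant doxorubicin library A lay below the level of 3 counts, and the other 3 doxorubicin libraries were close together. Likeness over the 8 libraries was highest with Zfp644 (Pearson r = 0.981), Zfp617 (0.981) and Zfp521 (0.960).

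Zfp462, a very large protein needed for normal development and chromatin organisation, was the most abundant of the strongly falling genes. It had 207 and 185 CPM in mutant doxorubicin libraries, 462 and 436 CPM in mutant controls, 163 and 167 CPM in WT doxorubicin libraries and 435 and 370.3 CPM in WT controls, and fell by 1.20 ± 0.08 and 1.29 ± 0.08 on the log2 scale in mutant and WT cells. Zfp827, whose human counterpart brings the NuRD remodelling complex to telomeres in cells that lengthen them by recombination, averaged 9.30 ± 0.257 CPM with doxorubicin and 22.9 ± 2.54 CPM in control in mutant cells, and 8.30 ± 0.0769 and 22.0 ± 1.29 CPM in WT cells. Both genes were lower in every doxorubicin library than in any control.

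Zfp828, also called Champ1, a protein of chromosome alignment on the spindle, fell by 1.29 ± 0.13 in mutant and 1.35 ± 0.12 in WT cells. Zfp788 fell by 1.47 ± 0.16 and 1.54 ± 0.15, Zfp583 by 1.35 ± 0.26 and 1.20 ± 0.22, Zfp566 by 1.24 ± 0.26 and 1.27 ± 0.24, and Zfp1 by 1.19 ± 0.30 and 1.18 ± 0.28 in mutant and WT cells. Zfp382 fell by 2.07 ± 0.37 in mutant and 1.17 ± 0.34 in WT cells, Zfp90 by 1.36 ± 0.26 and 1.10 ± 0.23, and the difference between the genotypes was not called for either (adjusted p = 0.935 and 0.998). Without WT doxorubicin library A, the adjusted p of Zfp382 in WT cells was 0.0627. Zfp184 had 0.320 and 0.198 CPM in mutant doxorubicin libraries, 0.446 and 1.15 CPM in mutant controls, 0.331 and 0.282 CPM in WT doxorubicin libraries and 1.41 and 0.822 CPM in WT controls. It fell by 1.61 ± 0.54 in mutant and 1.83 ± 0.48 in WT cells, and the change in mutant cells was -0.77 with an adjusted p of 0.37 without mutant control library B. In WT cells the adjusted p was 0.0512 without WT control library A.

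**Figure D2:**
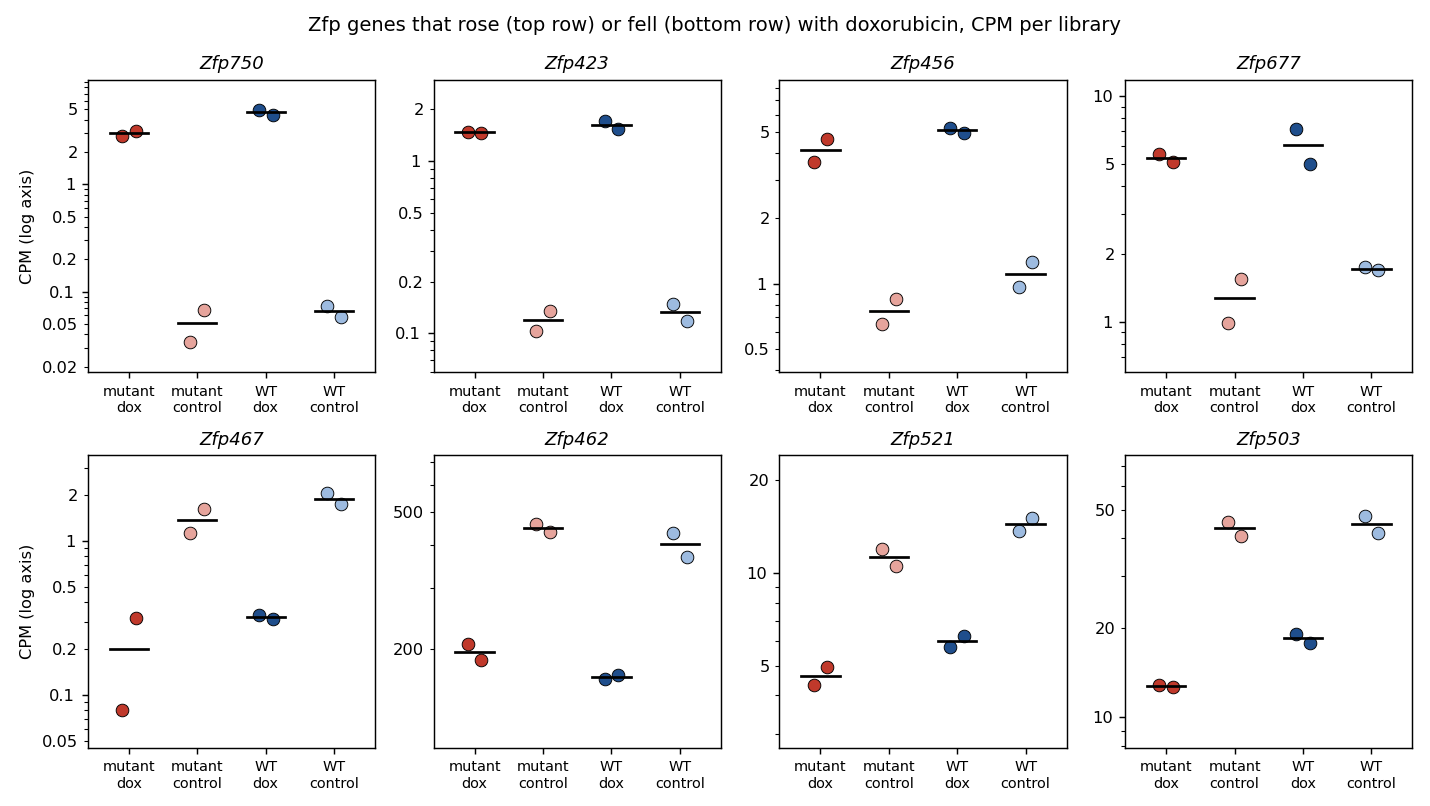
CPM on a log axis in each of the 8 libraries for 4 Zfp genes that rose with doxorubicin (top row) and 4 that fell (bottom row), with points for libraries A and B and a bar at their mean. In all 8 panels the doxorubicin libraries of a genotype lie on 1 side of its controls, and Zfp750 is below 0.1 CPM in every control library.

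RefSeq promoters (GRCm38.p6, 250 bases before to 50 after the start) were found for 229 members, with 284 promoters among them, of 32851 in the table. A p53 response element was searched as a pair of 10-base half-sites up to 13 bases apart. It was in none of the members' promoters, against 0.044% of promoters of genes tested and 0.0731% of all. At so low a rate, the lack of a match among 284 promoters says little. Zfp750 had no entry. The E2F letters TTTCCCGC or TTTGGCGC, on either strand, were in 11 of the members' promoters (3.87%), against 2.84% of promoters of genes tested and 1.56% of all. The letters CCGGAAG, the core read by ETS factors, were in 59 (20.8%), against 16.8% of promoters of genes tested and 8.86% of all.

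The sequences below show these letters in members whose responses differ in direction, on the strand of the gene and 5′ to 3′, with 1 match per promoter in capitals (the Zfp688 promoter also holds ccggaag, in lower case; GCGCCAAA, GCGGGAAA and CTTCCGG are matches on the opposite strand). Zfp367, Zfp383 and Zfp184 fell with doxorubicin, and Zfp688 and Zfp947 rose.
Zfp367 promoter 1, chr13:64152324-64152623, strand -: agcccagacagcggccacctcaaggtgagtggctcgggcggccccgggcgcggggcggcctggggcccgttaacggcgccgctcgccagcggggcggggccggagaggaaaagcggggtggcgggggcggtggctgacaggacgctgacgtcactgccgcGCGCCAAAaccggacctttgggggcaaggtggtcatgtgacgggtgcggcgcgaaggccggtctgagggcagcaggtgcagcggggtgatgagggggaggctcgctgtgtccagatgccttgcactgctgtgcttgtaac
Zfp367 promoter 2, chr13:64153150-64153449, strand -: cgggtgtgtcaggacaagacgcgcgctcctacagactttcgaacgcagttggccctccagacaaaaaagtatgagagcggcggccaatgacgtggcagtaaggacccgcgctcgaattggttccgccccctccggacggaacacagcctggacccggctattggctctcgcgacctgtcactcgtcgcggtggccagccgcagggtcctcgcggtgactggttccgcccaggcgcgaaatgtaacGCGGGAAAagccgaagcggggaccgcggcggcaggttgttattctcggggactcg
Zfp383, chr7:29908267-29908566, strand +: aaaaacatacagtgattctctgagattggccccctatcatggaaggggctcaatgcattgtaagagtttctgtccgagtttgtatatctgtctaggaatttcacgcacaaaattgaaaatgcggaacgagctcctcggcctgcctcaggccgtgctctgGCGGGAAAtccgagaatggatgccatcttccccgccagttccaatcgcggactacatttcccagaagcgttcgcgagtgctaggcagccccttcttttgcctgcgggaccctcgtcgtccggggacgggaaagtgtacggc
Zfp688, chr7:127421985-127422284, strand -: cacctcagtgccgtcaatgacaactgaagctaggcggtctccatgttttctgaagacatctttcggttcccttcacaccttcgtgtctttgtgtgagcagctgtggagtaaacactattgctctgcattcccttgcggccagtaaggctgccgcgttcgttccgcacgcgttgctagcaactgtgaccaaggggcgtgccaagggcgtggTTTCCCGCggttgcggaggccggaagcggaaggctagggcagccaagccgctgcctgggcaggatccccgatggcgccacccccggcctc
Zfp184 promoter 1, chr13:21944844-21945143, strand +: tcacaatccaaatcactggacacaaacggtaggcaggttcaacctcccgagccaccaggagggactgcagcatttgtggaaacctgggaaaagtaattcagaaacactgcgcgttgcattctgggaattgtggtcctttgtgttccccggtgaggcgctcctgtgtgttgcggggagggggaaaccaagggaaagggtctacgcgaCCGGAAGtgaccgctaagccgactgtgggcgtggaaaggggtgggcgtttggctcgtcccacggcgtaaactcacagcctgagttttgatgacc
Zfp947, chr17:22165928-22166227, strand -: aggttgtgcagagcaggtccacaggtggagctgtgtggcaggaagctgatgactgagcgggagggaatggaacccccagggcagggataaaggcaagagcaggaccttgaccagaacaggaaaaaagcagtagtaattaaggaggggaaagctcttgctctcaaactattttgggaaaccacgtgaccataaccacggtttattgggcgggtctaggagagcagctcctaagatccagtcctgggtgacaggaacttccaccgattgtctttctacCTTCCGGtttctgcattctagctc

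Among the genes printed, the E2F letters stood before Zfp367 and Zfp383, which fell, and before Zfp688, which rose. In Zfp367 the capitals begin 90 bases before the first start and 5 bases before the second, in Zfp383 91 bases and in Zfp688 40 bases before the start. In Zfp184 they begin 44 bases before it, and in Zfp947 27 bases after it. Of 10 tested members with the E2F letters, 3 rose and 3 fell in mutant cells, and 3 rose and 4 fell in WT cells. Of 50 with CCGGAAG, 12 rose and 9 fell in mutant cells, and 12 rose and 11 fell in WT cells. Among all genes tested, 28.3% rose and 25.9% fell in mutant cells, and 29.3% rose and 28.1% fell in WT cells. A match of letters is a description of these windows and not a binding site.

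Zfp383, one of the genes with the E2F letters, averaged 9.84 ± 0.113 CPM with doxorubicin and 18.7 ± 0.788 CPM in control in mutant cells, and 8.74 ± 2.53 and 18.8 ± 1.28 CPM in WT cells. Its falls were -0.93 ± 0.14 and -1.11 ± 0.14 on the log2 scale. Zfp688 had 1.16 and 2.21 CPM in mutant doxorubicin libraries, 0.583 and 0.813 CPM in mutant controls, 1.56 and 1.63 CPM in WT doxorubicin libraries and 0.223 and 0.587 CPM in WT controls, with log2 fold changes of 1.27 ± 0.37 and 1.90 ± 0.40. Without mutant doxorubicin library B, Zfp688 was at 0.73 in mutant cells (adjusted p = 0.201). Zfp383 and Zfp688 were picked for their promoters after their values were seen.

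The developmental regulators of mesenchyme formed a group of 13 tested members. In mutant cells 3 rose and 6 fell, and in WT cells 3 rose and 7 fell, with median log2 fold changes of -0.20 and -0.37. The shares over all genes tested were 28.3% up and 25.9% down in mutant cells, and 29.3% and 28.1% in WT cells. The risers of the group were Zfp423 (above), Zfp219 and Zfp64. Zfp219, a cofactor of Sox9 in cartilage formation, had 0.840 and 1.23 CPM in mutant doxorubicin libraries, 0.103 and 0.237 CPM in mutant controls, 0.729 and 0.970 CPM in WT doxorubicin libraries and 0.111 and 0.440 CPM in WT controls. It rose by 2.57 ± 0.55 in mutant and 1.53 ± 0.49 in WT cells, and in WT cells it was at 0.94 (adjusted p = 0.142) without WT control library A and at 2.88 without library B. Zfp64, a coactivator of Notch signalling, averaged 5.57 ± 0.177 CPM with doxorubicin and 2.32 ± 0.173 CPM in control in mutant cells, and 5.29 ± 0.439 and 2.26 ± 0.413 CPM in WT cells.

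Zfp521, which opposes Ebf1 and Zfp423 in fat precursors, moved the other way. It had 4.32 and 4.94 CPM in mutant doxorubicin libraries, 12 and 10.5 CPM in mutant controls, 5.73 and 6.26 CPM in WT doxorubicin libraries and 13.7 and 15.1 CPM in WT controls, and fell by 1.28 ± 0.14 in mutant and 1.26 ± 0.13 in WT cells. The pair Zfp423 and Zfp521 therefore changed in opposite directions in all libraries of both genotypes. Zfp503, a NET family corepressor, had 12.8 and 12.6 CPM in mutant doxorubicin libraries, 45.6 and 40.9 CPM in mutant controls, 19.1 and 17.8 CPM in WT doxorubicin libraries and 47.5 and 41.8 CPM in WT controls. It fell in both genotypes, by 1.76 ± 0.10 in mutant and 1.28 ± 0.09 in WT cells.

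Its family partner Zfp703 averaged 7.5 ± 0.132 CPM with doxorubicin and 8.64 ± 0.866 CPM in control in mutant cells, without a call (adjusted p = 0.199), and fell by 0.37 ± 0.14 in WT cells to 5.52 ± 0.107 CPM, against 7.11 ± 0.327 CPM in control. Zfp704 fell by 0.44 ± 0.13 in mutant and 0.51 ± 0.13 in WT cells. The calls of both genes were lost without single libraries, with an adjusted p of 0.132 for Zfp703 in WT cells without WT control library B, and of 0.0708 and 0.0629 for Zfp704 in mutant and WT cells without mutant doxorubicin library B and WT control library A.

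By protein class, 156 members carried a KRAB A box motif in at least 1 annotated isoform, 113 had C2H2 fingers and no KRAB motif, 7 had no C2H2 motif and 3 could not be matched. Of 155 KRAB members tested, 41 rose and 32 fell in mutant cells (26.5% and 20.6%), and 42 rose and 33 fell in WT cells (27.1% and 21.3%). Of the 113 with fingers and no KRAB motif, 15 rose and 34 fell in mutant cells (13.3% and 30.1%). In WT cells 20 of them rose and 34 fell (17.7% and 30.1%). Over all genes tested, 28.3% rose and 25.9% fell in mutant cells, and 29.3% rose and 28.1% fell in WT cells. Both the rises and the falls of KRAB members were thus under the shares of all genes. Members with fingers and no KRAB motif had a lower share of rises and a slightly higher share of falls than all genes. The medians were -0.03 and -0.18 in mutant cells and 0.04 and -0.15 in WT cells for the classes in that order, against 0.01 over all genes tested. Nothing was tested between the classes, and the split rests on a cutoff of 11 of 18 letters of the KRAB A box. The 9 tested members with 8 to 11 letters gave 1 rise and 4 falls in each genotype. Members under the cutoff, such as Zfp746 with 10 letters, and SCAN members such as Zfp263 were counted without a KRAB motif.

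Genes outside the family name were counted in the same way. Of 54 other tested genes with a KRAB motif, 18 rose and 5 fell in mutant cells (33.3% and 9.26%) and 17 rose and 10 fell in WT cells (31.5% and 18.5%), so that their rises, unlike those of KRAB members, were above the share of all genes. Of 147 other genes with 3 or more C2H2 motifs and no KRAB motif, 40 rose and 57 fell in mutant cells (27.2% and 38.8%), and 38 rose and 57 fell in WT cells (25.9% and 38.8%). Within the Zfp genes, a protein held a median of 11 C2H2 motifs and at most 37. Across 275 members, which are not independent, Spearman's rho between the number of motifs and the log2 fold change was 0.0178 in mutant and -0.000647 in WT cells, and with protein length it was -0.0554 and -0.0604.

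**Figure D3:**
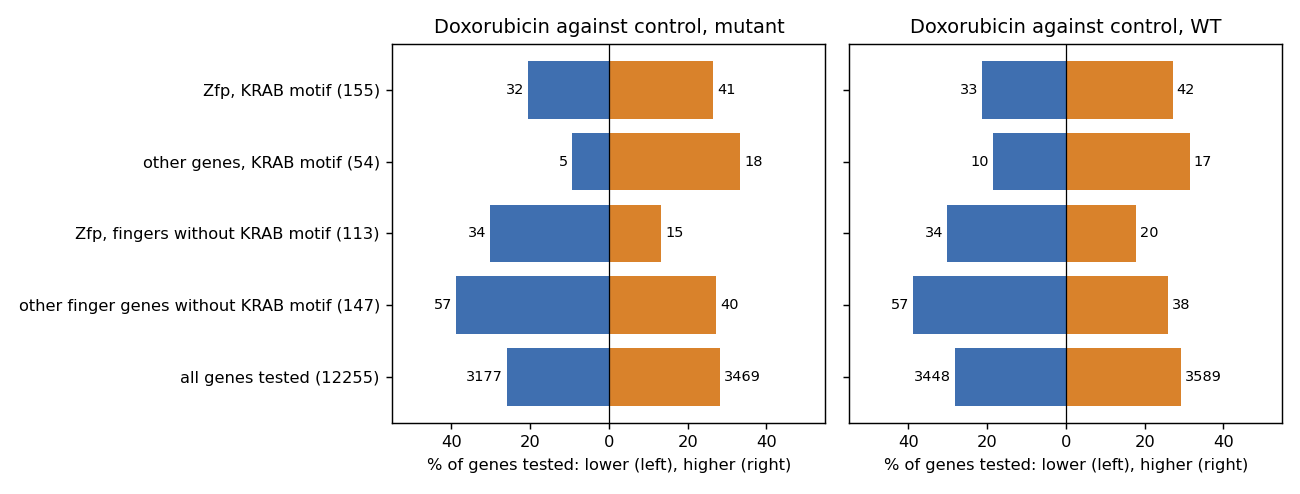
Percent of tested genes that rose or fell with doxorubicin, by protein class, in mutant cells (left) and WT cells (right), with all 12255 genes tested as the last group. KRAB members rose in 26.5% and 27.1% and fell in 20.6% and 21.3%, while members with fingers and no KRAB motif rose in 13.3% and 17.7% and fell in 30.1% in each genotype.

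The genes through which KRAB proteins act were mostly lower with doxorubicin. Of 29 tested genes for Trim28, its partners, heterochromatin proteins, histone and DNA methyltransferases and the SUMO pathway, 3 rose and 15 fell in mutant cells, and 4 rose and 17 fell in WT cells, with medians of -0.41 and -0.42. Among all genes tested, 28.3% rose and 25.9% fell in mutant cells, and 29.3% rose and 28.1% fell in WT cells. Trim28, the corepressor itself, had 7.16 and 6.6 CPM in mutant doxorubicin libraries, 13.4 and 13.1 CPM in mutant controls, 6.82 and 7.14 CPM in WT doxorubicin libraries and 13.9 and 15.3 CPM in WT controls. It fell by 0.95 ± 0.12 in mutant cells (adjusted p = 7.55e-07) and 1.07 ± 0.11 in WT cells (adjusted p = 6.62e-08). Every doxorubicin library was below every control.

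Cbx5, which encodes heterochromatin protein HP1 alpha, fell by 0.41 ± 0.07 in mutant and 0.63 ± 0.07 in WT cells, and Cbx3, for HP1 gamma, by 1.49 ± 0.12 and 1.83 ± 0.12. Uhrf1, which guides maintenance DNA methylation in S phase, fell by 1.55 ± 0.08 in mutant and 1.83 ± 0.08 in WT cells. Atrx, a chromatin remodeller of heterochromatin, fell by 0.46 ± 0.07 and 0.41 ± 0.07. Among the risers, Morc3, an ATPase of nuclear bodies, rose by 0.55 ± 0.07 and 0.75 ± 0.07. Trim28, Cbx3 and Uhrf1 were named after their values were seen.

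Members known for silencing retroelements or keeping imprints were few and moved in different directions. Of 9 tested, 2 rose and 2 fell in mutant cells, and 3 rose and 2 fell in WT cells. For all genes tested the shares were 28.3% up and 25.9% down in mutant cells, and 29.3% and 28.1% in WT cells. Zfp809, which recruits Trim28 to the primer binding site of murine leukaemia viruses, had 8.96 and 11.1 CPM in mutant doxorubicin libraries, 4.77 and 4.64 CPM in mutant controls, 10.1 and 10.6 CPM in WT doxorubicin libraries and 4.98 and 5.19 CPM in WT controls. It rose by 1.09 ± 0.14 in mutant and 1.02 ± 0.14 in WT cells, and all doxorubicin libraries lay above all controls. Zfp568, which represses a placental transcript of Igf2, averaged 6.28 ± 0.115 CPM with doxorubicin and 10.2 ± 0.666 CPM in control in mutant cells, and 6.56 ± 0.329 and 11.1 ± 0.541 CPM in WT cells, falls of 0.69 ± 0.13 and 0.76 ± 0.12. Zfp445, a keeper of imprints, fell by 0.35 ± 0.09 in mutant cells (adjusted p = 0.00304, and 0.086 without mutant doxorubicin library B) and was at -0.16 ± 0.09 in WT cells (adjusted p = 0.133).

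Zfp genes of a cluster lie side by side, and some neighbours moved together. In the GRCm38 annotation, 138 members fell into 23 neighbourhoods of at least 3 members with at most 5 other coding genes between them. The largest, on chromosome 17 between Zfp160 and Zfp213, held 19 members, 18 of them with a KRAB motif, among 38 coding genes. Of these 19, 12 rose and 1 fell in mutant cells, and 12 rose and 1 fell in WT cells, with medians of 0.60 and 0.41. The percentage of all genes tested that rose was 28.3% in mutant and 29.3% in WT cells, as given above. The stretch was singled out after its values were seen, and no test of it was made.

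Inside this stretch Zfp760 was the most abundant member, with 159 and 151 CPM in mutant doxorubicin libraries, 94.9 and 89.6 CPM in mutant controls, 131 and 140.3 CPM in WT doxorubicin libraries and 90.1 and 86.9 CPM in WT controls. It rose by 0.75 ± 0.07 and 0.62 ± 0.07 in mutant and WT cells. Zfp945 rose by 1.02 ± 0.08 and 0.86 ± 0.08, Zfp54 by 1.11 ± 0.11 and 1.23 ± 0.11, Zfp52 by 0.88 ± 0.09 and 0.83 ± 0.09, and Zfp160 by 0.48 ± 0.10 and 0.55 ± 0.10. The exception was Zfp40, which averaged 4.06 ± 0.134 CPM with doxorubicin and 6.82 ± 0.300 CPM in control in mutant cells, and 4.13 ± 0.449 and 6.67 ± 0.181 CPM in WT cells.

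Some of these genes are near copies of each other. Among the 15 members of the stretch that shared under 5% of their 50-base windows with any other gene, 9 rose and 1 fell in each genotype, with medians of 0.53 in mutant and 0.37 in WT cells. Of 4 other tested genes in the stretch, 2 rose and none fell in each genotype. The KRAB members of chromosome 17 as a whole numbered 32, of which 15 rose and 4 fell in each genotype. These include the 18 KRAB members of the stretch, so the count is not separate from it. Of 525 genes tested on chromosome 17, 25.3% rose and 23.4% fell in mutant cells, and 25.1% and 25.9% in WT cells. Among all genes tested, 28.3% rose and 25.9% fell in mutant cells, and 29.3% and 28.1% in WT cells.

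On chromosome 7 the picture was different. The 14 members between Zfp84 and Zfp146, among 15 coding genes, included 7 that fell and none that rose in mutant cells, and 6 that fell and none that rose in WT cells, with medians of -0.46 and -0.25. Over all genes tested, 25.9% fell and 28.3% rose in mutant cells, and 28.1% fell and 29.3% rose in WT cells. The members that fell in both genotypes were Zfp383, Zfp568, Zfp566, Zfp260, Zfp382 and Zfp146, of which Zfp382, Zfp260 and Zfp146 lost the WT call without 1 library (Zfp382 at an adjusted p of 0.0627). Zfp260 had 22.0 and 18.8 CPM in mutant doxorubicin libraries, 32.4 and 31.8 CPM in mutant controls, 28.6 and 20.9 CPM in WT doxorubicin libraries and 30.4 and 34.3 CPM in WT controls, and fell by 0.65 ± 0.12 in mutant and 0.39 ± 0.12 in WT cells, the WT change being -0.18 (adjusted p = 0.182) without WT doxorubicin library B and -0.63 without library A. Zfp146 fell by 1.70 ± 0.48 and 1.30 ± 0.43, and in WT cells the adjusted p was 0.142 without WT doxorubicin library A. This stretch too was chosen after its values were seen.

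**Figure D4:**
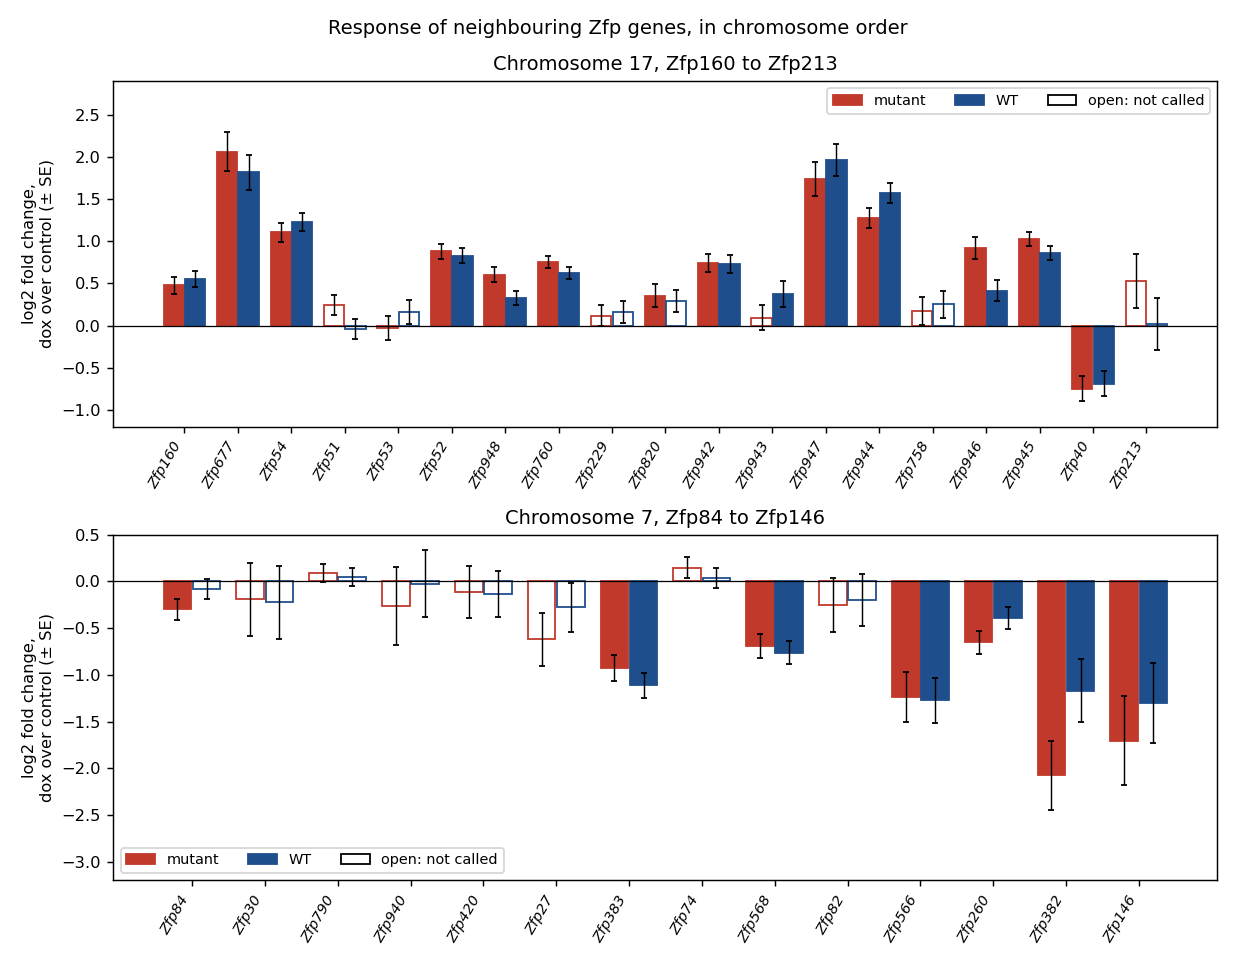
Log2 fold change (doxorubicin over control, bars ± SE) of neighbouring Zfp genes in chromosome order, mutant cells in red and WT cells in blue, with unfilled bars where the change was not called. On chromosome 17 (top), 12 of 19 members rose and Zfp40 alone fell in each genotype, and on chromosome 7 (bottom), 7 of 14 fell in mutant and 6 in WT cells with no riser.

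Other stretches were mixed. Of 15 members on chromosome 13 between Zfp712 and Zfp273, 5 rose and none fell in mutant cells, and 4 rose and 1 fell in WT cells. The 7 other tested genes there, all with a KRAB motif, gave 2 rises in mutant and 6 in WT cells. Under 5% of windows were shared by 6 of the 15 members, of which 2 rose in mutant and 1 in WT cells. On chromosome 2, Zfp120, Zfp937 and Zfp442 all rose in both genotypes, by 0.48 ± 0.12, 1.01 ± 0.13 and 0.97 ± 0.18 in mutant cells and by 0.60 ± 0.12, 1.09 ± 0.12 and 0.99 ± 0.17 in WT cells. Zfp937 and Zfp442 shared 29.4% and 32.1% of their windows with other genes, most of all with each other. Their counts may therefore exchange reads, while Zfp120 shared 0.873%. Of 14 KRAB members on chromosome 9, 2 rose and 8 fell in mutant cells, and 3 rose and 7 fell in WT cells. Beside each of these counts stand the shares of all genes tested. They were 28.3% up and 25.9% down in mutant cells, and 29.3% and 28.1% in WT cells.

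Of 12 tested members that act as general transcription factors, 2 rose and 3 fell in mutant cells, and 3 rose and 3 fell in WT cells. Over all genes tested, 28.3% rose and 25.9% fell in mutant cells, and 29.3% rose and 28.1% fell in WT cells. Zfp281, which controls pluripotency genes in embryonic stem cells, had 325 and 340.1 CPM in mutant doxorubicin libraries, 284 and 282 CPM in mutant controls, 318 and 327 CPM in WT doxorubicin libraries and 275 and 269 CPM in WT controls. It rose by 0.23 ± 0.06 in mutant and 0.24 ± 0.06 in WT cells, a small change with no overlap between groups. Zfp148, a binder of GC-rich promoters, averaged 290.1 ± 3.26 CPM with doxorubicin and 372 ± 3.75 CPM in control in mutant cells, and 282 ± 2.09 and 351 ± 3.05 CPM in WT cells, falls of 0.36 ± 0.06 and 0.32 ± 0.06. Zfp384 fell by 0.36 ± 0.13 in mutant cells (adjusted p = 0.0203, and 0.183 without mutant doxorubicin library B) and by 0.48 ± 0.13 in WT cells. Zfp410, which activates the gene of the remodeller Chd4, was at 0.07 ± 0.12 in mutant cells (adjusted p = 0.68) and rose by 0.29 ± 0.12 in WT cells (adjusted p = 0.0421, and 0.218 without WT control library A).

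Members that work on RNA, ribosomes, ubiquitin, SUMO or the spindle numbered 17 tested. Of these, 3 rose and 7 fell in mutant cells, and 5 rose and 7 fell in WT cells. The shares over all genes tested were 28.3% up and 25.9% down in mutant cells, and 29.3% and 28.1% in WT cells. Zfp207, also called BuGZ, which loads the checkpoint protein Bub3 onto kinetochores, had 257 and 234 CPM in mutant doxorubicin libraries, 335 and 299 CPM in mutant controls, 244 and 228 CPM in WT doxorubicin libraries and 333 and 301 CPM in WT controls. It fell by 0.37 ± 0.08 and 0.43 ± 0.08 in mutant and WT cells. Zfp91, a ubiquitin ligase, averaged 81.4 ± 1.01 CPM with doxorubicin and 151 ± 0.623 CPM in control in mutant cells, and 75.1 ± 1.38 and 142 ± 3.74 CPM in WT cells, with falls of 0.89 ± 0.07 and 0.91 ± 0.07. Zfp326, of the DBIRD complex that couples elongation to splicing, rose by 0.39 ± 0.08 and 0.32 ± 0.08. Zfp292 fell by 0.46 ± 0.07 and 0.48 ± 0.07, and Zfp706 by 0.44 ± 0.08 and 0.51 ± 0.08.

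Of 5 tested members that earlier work links to p53, none rose and 2 fell in mutant cells, and 1 rose and 2 fell in WT cells. For all genes tested the shares were 28.3% up and 25.9% down in mutant cells, and 29.3% and 28.1% in WT cells. The fallers of these 5 were Zfp148 and Zfp746. Zfp746, also called PARIS, a repressor of the gene for PGC-1 alpha, fell by 0.73 ± 0.15 in mutant and 0.58 ± 0.14 in WT cells. Zfp346, a nuclear protein that binds double-stranded RNA, had 5.32 and 5.69 CPM in mutant doxorubicin libraries, 4.08 and 5.56 CPM in mutant controls, 5.23 and 5.95 CPM in WT doxorubicin libraries and 4.05 and 3.14 CPM in WT controls. The mutant groups overlapped and no call was made there (adjusted p = 0.375), while in WT cells it rose by 0.65 ± 0.18, with an adjusted p of 0.0798 without WT control library B. Zfp420, or Apak, which restrains p53 in unstressed cells, was at -0.11 ± 0.28 and -0.13 ± 0.25, and Zfp668 at -0.38 ± 0.34 and -0.03 ± 0.34, all without a call.

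The second question was whether the Zfp genes differ between the genotypes. In control cells 7 members differed between mutant and WT (2.52% of the members, 3 higher and 4 lower in mutant), against 5.92% of all genes tested, of which 2.75% were higher and 3.17% lower. With doxorubicin 13 differed (4.68%, 6 higher and 7 lower in mutant), against 7.74% of all genes tested, 3.92% higher and 3.82% lower. Both shares of the members were under the background. In all, 16 members were called in at least 1 of the comparisons, 9 of them with a KRAB motif. Those on chromosome 17, which also carries Dino and Cdkn1a, were Zfp598 and Zfp871.

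Sex-linked genes separated the genotypes in the same libraries. Xist, the noncoding RNA of X inactivation, was at 575 and 469 CPM in mutant doxorubicin libraries and 254 and 212 CPM in mutant controls, against 0.232 and 0.376 CPM in WT doxorubicin libraries and 0.260 and 0.293 CPM in WT controls. The Y-linked gene Ddx3y was at 58.7 and 60.6 CPM and 74.0 and 74.0 CPM in mutant libraries in the same order, against 448 and 472 CPM and 580.3 and 512 CPM in WT libraries. None of the 6 members on the X chromosome was called in either comparison of the genotypes. Of 434 genes tested on the X chromosome, 3% were higher and 3% lower in mutant controls, and 4.38% each way with doxorubicin. At such shares the lack of a call among 6 genes says little. The part of this difference in the genotype calls of the Zfp genes was not tested, and genotype and the sex-linked difference cannot be told apart in this design.

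Zfp933, a KRAB member on chromosome 4, showed the clearest difference between the genotypes. It had 9.52 and 10.8 CPM in mutant doxorubicin libraries, 13.2 and 10.9 CPM in mutant controls, 3.31 and 4.69 CPM in WT doxorubicin libraries and 4.76 and 4.40 CPM in WT controls. Every mutant library lay above every WT library, by 1.34 ± 0.16 with doxorubicin (adjusted p = 7.2e-06) and 1.40 ± 0.15 in control (adjusted p = 2.01e-06) on the log2 scale. Doxorubicin itself moved it by -0.25 ± 0.14 in mutant and -0.19 ± 0.17 in WT cells, without a call.

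Zfp612, a KRAB member on chromosome 8, went the other way. It had 5.00 and 5.02 CPM in mutant doxorubicin libraries, 1.82 and 1.53 CPM in mutant controls, 8.48 and 7.95 CPM in WT doxorubicin libraries and 3.72 and 3.61 CPM in WT controls. It was lower in mutant cells by 0.71 ± 0.14 with doxorubicin (adjusted p = 0.00268) and by 1.13 ± 0.18 in control (adjusted p = 0.000282), and rose with doxorubicin by 1.58 ± 0.18 in mutant and 1.17 ± 0.15 in WT cells. The groups did not overlap in any of these comparisons.

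Zfp317 had 111 and 110.1 CPM in mutant doxorubicin libraries, 176 and 163 CPM in mutant controls, 138 and 139 CPM in WT doxorubicin libraries and 216 and 201 CPM in WT controls. In mutant cells it was at -0.33 ± 0.07 with doxorubicin (adjusted p = 0.00455) and -0.30 ± 0.07 in control (adjusted p = 0.0101) relative to WT, and in control the adjusted p was 0.217 without mutant control library B. Zfp697 was higher in mutant cells, with 89.5 and 83.7 CPM in mutant doxorubicin and 89.2 and 78.4 CPM in mutant control libraries, against 65.4 and 75.8 CPM in WT doxorubicin and 70.5 and 62.0 CPM in WT control libraries. The adjusted p of Zfp697 was 0.0464 with doxorubicin and 0.0238 in control, and 0.407 and 0.352 without WT doxorubicin library A and WT control library B, the difference with doxorubicin then being 0.19 on the log2 scale.

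The other members called in control cells were Zfp69, Zfp7 and Zfp386. Zfp69, linked to diabetes in obese mice, had 0.440 and 0.356 CPM in mutant doxorubicin libraries, 0.446 and 0.339 CPM in mutant controls, 0.199 and 0.0313 CPM in WT doxorubicin libraries and 0.0743 and 0.0293 CPM in WT controls. In control cells this was 23 counts in mutant against 3 in WT libraries, a ratio of 7.97 (95% exact interval 2.41 to 41.5), with an adjusted p of 0.0335 that was 0.383 without WT control library B. With doxorubicin the counts were 20 against 7, a ratio of 3.53 (1.43 to 9.88), without a call. Zfp69 lies below the mean level that the naming rule asks for and was named after its values were seen. It met the count rule only through mutant libraries, so a high mutant side was a condition of its membership.

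Zfp7 averaged 2.98 ± 0.0467 CPM in mutant and 4.57 ± 0.00557 CPM in WT controls, lower by 0.62 ± 0.17 on the log2 scale (adjusted p = 0.0292, and 0.195 without mutant control library A). Its neighbours Zfp251 and Zfp647 on chromosome 15 were not called. Zfp386 averaged 19.3 ± 0.196 CPM in mutant and 24.8 ± 1.76 CPM in WT controls (adjusted p = 0.022, and 0.311 without WT control library B). In doxorubicin-treated cells both genes missed the call, with adjusted p = 0.681 for Zfp7 and 0.11 for Zfp386.

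**Figure D5:**
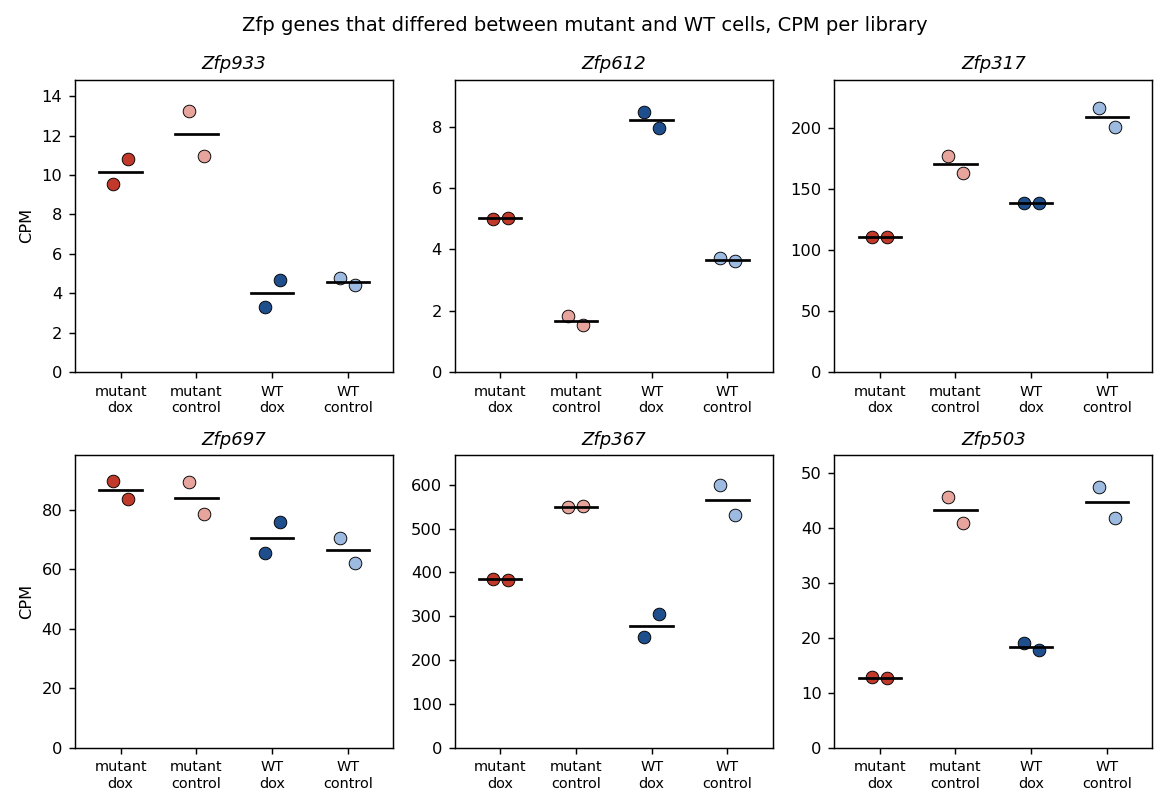
CPM (linear axes from 0) in each library for 6 Zfp genes that differed between mutant and WT cells in at least 1 condition, with points for libraries A and B and a bar at their mean. Zfp933 is higher and Zfp612 and Zfp317 are lower in both mutant groups than in the WT group of the same treatment, while Zfp367 and Zfp503 differ between the genotypes in the doxorubicin libraries.

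With doxorubicin, Zfp367 and Zfp503 gave the firmest calls after Zfp933. Zfp367, a C2H2 protein called ZFF29 in human erythroid cells, had 384 and 384 CPM in mutant doxorubicin libraries, 548 and 551 CPM in mutant controls, 251 and 305 CPM in WT doxorubicin libraries and 599.9 and 531 CPM in WT controls. It was higher in mutant than in WT cells with doxorubicin by 0.46 ± 0.08 (adjusted p = 0.000614) and at -0.04 ± 0.08 in control (adjusted p = 0.88). The fall with doxorubicin was 0.52 ± 0.08 in mutant and 1.02 ± 0.08 in WT cells. Zfp503, given above, was lower in mutant cells with doxorubicin by 0.53 ± 0.10 (adjusted p = 0.00193) and at -0.05 ± 0.09 in control.

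Further calls with doxorubicin were weaker. Zfp9 averaged 4.65 ± 0.916 CPM in mutant and 7.88 ± 0.321 CPM in WT cells with doxorubicin (adjusted p = 0.00231, and 0.072 without mutant doxorubicin library A), and Zfp87 averaged 2.53 ± 0.387 and 4.46 ± 0.770 CPM (adjusted p = 0.0134, and 0.174 without WT doxorubicin library A). Zfp598, the ligase that senses collided ribosomes, averaged 2.72 ± 0.230 CPM in mutant and 4.24 ± 0.148 CPM in WT cells with doxorubicin (adjusted p = 0.0336, and 0.229 without mutant doxorubicin library A). Zfp750 was lower in mutant than in WT doxorubicin libraries by 0.65 ± 0.19 (adjusted p = 0.0413, and 0.284 in DESeq2), the groups not overlapping.

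Small upward differences with doxorubicin were called for Zfp664, Zfp236 and Zfp871, of 0.26 ± 0.07, 0.27 ± 0.08 and 0.24 ± 0.07 on the log2 scale (adjusted p = 0.026, 0.0385 and 0.0445). Without mutant doxorubicin library A the adjusted p of these genes were 0.275, 0.391 and 0.316. Neighbours of Zfp871 on chromosome 17 between it and Zfp563 numbered 7, and of Zfp236 on chromosome 18 up to Zfp407 numbered 2, and none of them was called in either comparison of the genotypes. The same held for the 14 neighbours of Zfp87 on chromosome 13.

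The series is named for a signature that depends on Dino, which the difference between the responses addresses. No member passed that test, against 0.0734% of all genes tested (9 of 12255), and 7 members had an unadjusted p under 0.05. DESeq2 called 1 member and limma-voom none. Zfp367 came nearest, with a response less negative in mutant cells by 0.51 ± 0.11 (adjusted p = 0.119), which was called in DESeq2 (adjusted p = 0.0404), without a filter on low counts (0.00129) and without WT doxorubicin library B (0.00334), and had an adjusted p of 0.481 without mutant control library A. Its higher level in mutant doxorubicin libraries was called under each of 16 alternatives.

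Zfp503 was next, with a response more negative in mutant cells by 0.49 ± 0.14 (adjusted p = 0.334). Zfp946, a KRAB member of the chromosome 17 stretch, rose by 0.92 ± 0.13 in mutant and 0.41 ± 0.12 in WT cells, a difference of 0.51 ± 0.18 (adjusted p = 0.574). In WT cells it was at 0.23 (adjusted p = 0.167) without WT doxorubicin library A. Zfp867 had 13.1 and 14.9 CPM in mutant doxorubicin libraries, 8.16 and 7.76 CPM in mutant controls, 13.2 and 14.9 CPM in WT doxorubicin libraries and 6.06 and 5.93 CPM in WT controls. Its levels with doxorubicin were alike in the genotypes, the difference of the responses was -0.42 ± 0.17, and its adjusted p was 0.755.

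Over all members, the first principal component of log2 CPM held 72.0% of the variance and set the doxorubicin libraries apart from the controls, and the second held 9.83% and set the mutant libraries apart from the WT libraries. Likeness of single members followed the first. Zfp750 was most like Zfp423 (Pearson r = 0.998 over 8 libraries), Zfp287 (0.995) and Zfp692 (0.993), all risers. Zfp184 was most like Zfp90 (0.925), Zfp277 (0.915) and Zfp706 (0.898). The libraries fall into 4 with doxorubicin and 4 controls, and these correlations share that split.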

How the data were processed

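Per the labels, RNA of 8 libraries was prepared with an exome-capture kit and described as 3' sequencing. Per the submitters' processing notes, reads were aligned to mm9 with Bowtie2 and counted with HTSeq; versions, annotation, strand setting and the treatment of multiply matching reads are not given in the sources used here. The authors deposited whole-number counts for each gene symbol, not normalized.

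The fit used edgeR 4.0.16 under R 4.3.3 (filterByExpr, minimum count 10 and minimum total count 15; TMM; a quasi-likelihood fit with 1 coefficient per group on all 8 libraries, 4 residual degrees of freedom), with Benjamini-Hochberg adjustment of its two-sided tests over 12255 genes. Of 279 members, 278 were tested (Zfp59 was not). The SE is the size of the log2 fold change over the square root of F. The pipeline was tested on simulated data. As alternatives, TMM was replaced by upper-quartile or by DESeq2 scaling, edgeR by limma-voom (limma 3.58.1) or DESeq2 1.42.0, and the filter by none or by 5 CPM in 2 libraries; the letter was added as a block, fits were limited to the groups compared, and each library was left out in turn.

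Named were, per direction, the 10 largest called changes with doxorubicin and the 8 largest between genotypes (mean of at least 1 CPM, no overlap), the 4 smallest p in the difference of responses, the 6 highest levels, up to 5 members of each role list and the likeness set; others are marked as chosen after their values were seen. The members and lists were chosen with earlier results of these data known. Protein motifs came from coding sequences of the GENCODE annotation and gene order and promoters from RefSeq, all on GRCm38, matched by symbol.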

Additional observations from a re-analysis of the deposited data

How the results depend on the processing

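Counts of called members kept within 1.5 times their value under nearly all alternatives. Under a filter of 5 CPM in 2 libraries, 44 members fell with doxorubicin in WT cells, because only 140 members were then tested. In the difference of responses, DESeq2 and the fit without a filter each called 1 member, and leaving out a library gave 0 to 1. Mutant and WT controls differed in 3 to 8 members, and mutant and WT doxorubicin libraries in 7 to 17, when a library was left out. The differences of library A from B correlated between groups at -0.0249 to 0.0314 over all genes (6 pairs of groups). Over the members the correlations were -0.0603 to 0.187. These values do not show whether same-lettered libraries shared an embryo, a culture or a batch. With the letter as a replicate block, 60 members rose and 66 fell in mutant cells, 66 rose and 71 fell in WT cells, 8 and 16 differed between the genotypes in control and with doxorubicin, and none differed in response.

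Of 2666 comparisons of a named gene's value with an alternative (169 values), 2560 were counted as unchanged, 96 lost the call and 10 gained it. None reversed direction where either fit made a call. The 2560 include uncalled values that changed sign, such as Zfp420 in mutant cells (-0.27 to 0.07 over the alternatives). They also include values for which the alternative gave no adjusted p, such as Zfp69 between the controls in DESeq2. With upper-quartile factors the median log2 fold change of all genes was -0.0435 in mutant and -0.0444 in WT cells, against 0.0118 and 0.0068 with TMM. With 2 libraries per group, a gene below about 1 CPM rests on few counts.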
